A study of Arabidopsis thaliana with 6 samples.

Results

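The 36 genes described here are nuclear genes of Arabidopsis thaliana that encode subunits of the photosynthetic electron transport chain, picked by gene ID from the 34262 features of the deposited table. They are 12 genes of photosystem I (PSA), 11 of photosystem II (PSB), 5 of the minor light-harvesting antenna (LHCB4.1, LHCB4.2, LHCB4.3, LHCB5 and LHCB6), 6 of electron carriers (PETC, PETE1, PETE2, FD2, FNR1 and FNR2) and 2 of the chloroplast ATP synthase (ATPC1 and ATPD). All 36 were in the table, and all 36 passed the filter on low values of both main tests.

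Whole seedlings were grown on MS medium at 0.5 strength with 0.8% sucrose in days of 16 h light and 8 h dark, and were collected at ZT12, 12 h after lights-on. All plants shared the Col-0 background. The genotypes were the wild type, lhp1-3, a mutant of LHP1 (LIKE HETEROCHROMATIN PROTEIN 1, which binds the chromatin mark laid down by Polycomb proteins), and importin123, in which a set of importin alpha genes is mutated together (labelled as impα triple). Importin alpha proteins are adaptors for protein import into the nucleus. The series sets out to compare the genes misregulated in both mutants. Each genotype had 2 poly(A)-selected libraries, and the labels give no treatment, transgene or pooling and do not say whether replicates were grown separately. The p-values thus rest on the spread between these libraries alone, and that spread may be technical.

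In the light reactions, photosystem II splits water, the cytochrome b6f complex and plastocyanin pass the electrons on, and photosystem I hands them to ferredoxin, from which ferredoxin-NADP reductase makes NADPH. The ATP synthase uses the proton gradient that builds up on the way. Core subunits that carry the pigments are encoded in the plastid, whereas the subunits described here are made in the cytosol and imported, so each complex draws on both genomes. Genes of this kind are among the most highly expressed in green tissue.

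The libraries held 70137936 to 95101867 counts. Of the counts, the 36 genes took 3.21% and 3.34% in the Col-0 libraries, 1.84% and 2.15% in those of lhp1-3 and 1.53% and 2.08% in those of importin123. In the mutant libraries 13.7% to 18.7% of counts fell on plastid features, against 2.95% and 3.27% in Col-0. The median RPKM (reads per kb of gene, scaled to the total of the library, as deposited) of 2307 nearly silent nuclear genes was 1.32 to 1.79 in the mutants, against 0.206 and 0.248 in the wild type. Since such reads enter the scaling of every other gene, each comparison was tested across all 33906 features and across the 7474 nuclear genes with a mean RPKM of at least 10. The same edgeR quasi-likelihood test was used in both, and a gene was called at an adjusted p under 0.05. Levels of the subunit genes are given as scaled RPKM, that is RPKM with the library total replaced by the effective library size of the second test. Those of the targeted genes and of the tissue markers are deposited RPKM. In the labelled mutants the targeted genes were lower: 5.46 and 5.11 in the Col-0 libraries, 3.87 and 3.21 in those of lhp1-3 and 5.77 and 6.13 in those of importin123 for LHP1, and 23.6 and 22.6 in the Col-0 libraries, 17.8 and 17.4 in those of lhp1-3 and 3.43 and 3.06 in those of importin123 for IMPA1, the first of the importin alpha genes that the name importin123 points to (deposited RPKM). LHP1 was tested across all features alone, with -1.03 in lhp1-3, where IMPA1 had -0.84 in the same test. There LHP1, IMPA1, IMPA2 and IMPA3 were all called lower in lhp1-3, from -1.03 to -0.69. LHP1 thus fell little more in lhp1-3 than genes not targeted in that mutant. The markers of green tissue (RBCS1A, RCA, CAB1, FBA1 and GAPA1) summed to 12119 and 12743 RPKM in the Col-0 libraries, 7398 and 9064 in those of lhp1-3 and 6320 and 8098 in those of importin123. CAB1 went the other way in importin123, with 1343 and 1697 in the Col-0 libraries, 708 and 979 in those of lhp1-3 and 1747 and 2379 in those of importin123, and across well-expressed genes it was called higher than in Col-0 and the other 4 lower. The 8 root markers summed to 913 to 1341 RPKM, of which PYK10 alone made up 786 to 1261. PYK10 and GL2 were lowest in importin123. GL2 had 9.46 and 9.83 in the Col-0 libraries, 6.55 and 7.88 in those of lhp1-3 and 5.89 and 6.10 in those of importin123. TIP2.3, with 12.8 and 11.8 in importin123, lay within the range of Col-0 (17.3 and 9.55). The other 5 were highest in both importin123 libraries. Of these, PRP3 had 36.3 and 14.5 in the Col-0 libraries, 27.4 and 34.2 in those of lhp1-3 and 80.5 and 81.8 in those of importin123. COBL9, EXPA7, PIN2 and NRT2.1 stayed under 11 RPKM. NRT2.1 had 3.32 and 2.29 in importin123, where the median of the silent genes was 1.79 and 1.32. The 7 floral genes summed to 2.07 and 2.56 RPKM in the Col-0 libraries, 50.7 and 46.5 in those of lhp1-3 and 13.8 and 10.7 in those of importin123. In importin123 the mean of each floral gene was 1.32 to 2.89 RPKM, near the level of the silent genes there. In lhp1-3 the means were 1.90 to 18.9, beside 1.53 and 1.44 for the silent genes. The 5 seed genes summed to 213 and 269, 40.7 and 38.5, and 399.7 and 616. The part of all these markers in the results below was not tested. In whole seedlings, fewer green cells and less RNA per cell cannot be told apart.

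The subunit genes were highly expressed in every library, and 18 of the 36 ranked among the 100 nuclear genes of highest mean RPKM. PSBR (AT1G79040), a photosystem II subunit needed for the assembly of the water-splitting complex, had the highest level in every library, with 3424 and 3591 in the Col-0 libraries, 2116 and 2386 in those of lhp1-3 and 1618 and 2275 in those of importin123. LHCB4.3 (AT2G40100), the third copy of the LHCB4 antenna protein, had the lowest mean RPKM, with 95.2 and 71.99 in the Col-0 libraries, 71.7 and 72.6 in those of lhp1-3 and 22.4 and 26.8 in those of importin123. PETE1 (AT1G76100) was lower than LHCB4.3 in replicate 1 of Col-0 and of lhp1-3. Apart from LHCB4.3 and PETE1, every member had a mean RPKM of at least 100. The level expected from the reads on silent genes made up less than 2% of the level in every library for 33 members, and at most 13.2%, for LHCB4.3 in replicate 1 of importin123. The annotated spans of 11 members overlap a gene on the other strand, most in PSAG (61.4% of its length), PSAH1 (49.0%), PSAE1 (33.4%) and LHCB6 (25.2%). The use of strand in counting is not given in the sources used here, so reads of such partners cannot be told apart.

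**Figure D1:**
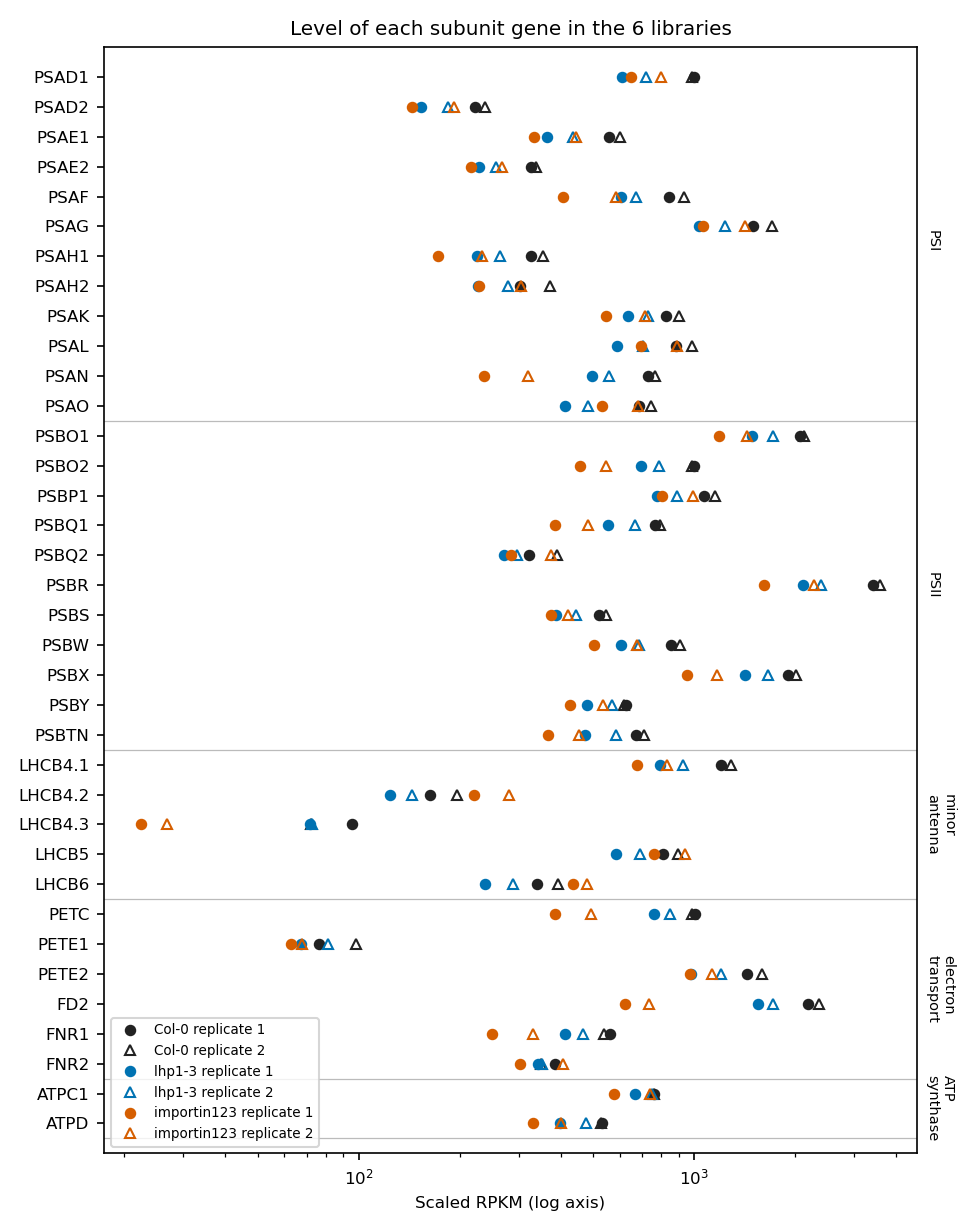
Scaled RPKM (log axis) of the 36 subunit genes in each of the 6 libraries, grouped by role; circles are replicate 1 and triangles replicate 2. In lhp1-3 the points of 33 members lie to the left of Col-0, whereas in importin123 LHCB4.3, FD2, PSAN and PETC lie far to the left, and LHCB4.2 and LHCB6 to the right.

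The promoters of 7 members are shown because 6 of them differed between the mutants in both tests, and LHCB4.1 is a copy of LHCB4.2 and LHCB4.3. The letters run 5′ to 3′ on the strand of the gene and end at the base before its annotated start, as taken from the RefSeq genome and annotation TAIR10.1 with all 36 members matched. Capitals mark the G-box CACGTG, bound by bZIP and bHLH factors of light signalling, and the core of the I-box GATAAG, or CTTATC on the other strand, both long known from promoters of light-regulated photosynthesis genes.
LHCB4.1: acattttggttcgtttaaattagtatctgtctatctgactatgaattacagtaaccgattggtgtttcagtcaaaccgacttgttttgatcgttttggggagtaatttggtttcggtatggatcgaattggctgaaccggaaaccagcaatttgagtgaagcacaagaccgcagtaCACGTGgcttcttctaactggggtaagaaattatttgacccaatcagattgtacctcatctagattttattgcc
LHCB4.2: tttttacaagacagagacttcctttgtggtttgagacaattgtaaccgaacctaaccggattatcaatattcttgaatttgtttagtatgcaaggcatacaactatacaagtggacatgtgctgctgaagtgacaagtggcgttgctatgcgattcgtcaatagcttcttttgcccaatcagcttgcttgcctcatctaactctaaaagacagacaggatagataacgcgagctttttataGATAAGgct
LHCB4.3: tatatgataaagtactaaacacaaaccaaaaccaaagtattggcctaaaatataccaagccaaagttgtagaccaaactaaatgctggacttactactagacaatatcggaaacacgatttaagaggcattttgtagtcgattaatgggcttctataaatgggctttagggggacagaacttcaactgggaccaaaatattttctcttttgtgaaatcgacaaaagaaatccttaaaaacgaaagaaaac
LHCB6: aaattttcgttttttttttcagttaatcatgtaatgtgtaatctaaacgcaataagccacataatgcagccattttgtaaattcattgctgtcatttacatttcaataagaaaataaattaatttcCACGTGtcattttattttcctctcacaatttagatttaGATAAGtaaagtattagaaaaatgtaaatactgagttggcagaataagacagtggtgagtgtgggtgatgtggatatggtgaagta
FD2: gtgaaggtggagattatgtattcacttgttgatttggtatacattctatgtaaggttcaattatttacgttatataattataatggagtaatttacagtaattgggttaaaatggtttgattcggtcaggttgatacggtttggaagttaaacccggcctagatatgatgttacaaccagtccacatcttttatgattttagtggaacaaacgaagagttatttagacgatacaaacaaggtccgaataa
PSAN: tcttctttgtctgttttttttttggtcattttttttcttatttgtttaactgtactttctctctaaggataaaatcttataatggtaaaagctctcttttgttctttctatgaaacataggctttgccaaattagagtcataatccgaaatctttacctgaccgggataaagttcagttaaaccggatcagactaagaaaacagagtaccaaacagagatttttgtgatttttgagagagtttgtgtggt
PETC: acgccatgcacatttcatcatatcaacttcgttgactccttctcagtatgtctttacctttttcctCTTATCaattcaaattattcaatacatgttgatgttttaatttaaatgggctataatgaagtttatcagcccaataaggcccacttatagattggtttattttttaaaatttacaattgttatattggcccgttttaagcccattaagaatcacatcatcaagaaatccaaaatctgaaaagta
These windows lie upstream of LHCB4.1 at chr5:208616-208865 on the plus strand, LHCB4.2 at chr3:2717307-2717556 on the plus strand, LHCB4.3 at chr2:16745378-16745627 on the plus strand, LHCB6 at chr1:5447881-5448130 on the minus strand, FD2 at chr1:22444057-22444306 on the plus strand, PSAN at chr5:25629709-25629958 on the minus strand, and PETC at chr4:1439896-1440145 on the plus strand. LHCB6 has both motifs and LHCB4.1 a G-box, LHCB4.2 and PETC have an I-box core, and LHCB4.3, FD2 and PSAN have neither in these letters.

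Over all 36 members, searched on both strands from 250 bases before to 50 bases after the start, the G-box CACGTG was in 14 windows (38.9%), against 7.68% of the 27443 windows of all protein-coding nuclear genes and 9.84% of those of the 6889 well-expressed ones among them. The I-box core GATAAG was in 20 (55.6%), against 14.6% and 17.2%. At least 1 of these motifs was in 27 of the 36 members, against 21.0% of all windows, and both were in 7. Neither was in PSAG, PSAN, PSBP1, PSBS, PSBX, LHCB4.3, LHCB5, FD2 and FNR2. For other letters the members were closer to the rest: CCAAT was in 63.9% of members and 51.6% of all windows, TATAAA in 47.2% and 52.1%, and the evening element AAATATCT in 5.56% and 5.65%. The telo-box AAACCCTA was in 0 of 36 and in 6.22% of all windows. A match is a stretch of letters and no measure of binding.

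In lhp1-3, 2 of the 36 genes were called lower than in Col-0 across well-expressed nuclear genes, and the values of the other 34 were below 0 and did not pass. Across well-expressed nuclear genes their log2 fold changes ran from -0.68 to -0.080, with a median of -0.42, while the median of all genes tested was -0.00057. PSAD1 (AT4G02770) and PSAO (AT1G08380) were the ones called, 2 of 36, where 8.34% of all genes tested were called lower and 10.2% higher. At an unadjusted p under 0.05 there were 23 members, all lower, where 17.7% of all genes tested were lower and 19.2% higher at that level. DESeq2 on the same genes called 24 members lower, where it called 14.7% of all genes lower and 14.2% higher. In scaled RPKM, both lhp1-3 libraries lay below both Col-0 libraries for 33 members, where 34.7% of all genes tested lay below in this way and 34.2% above, and the exceptions were LHCB4.3, PETE1 and FNR2 (AT1G20020).

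PSAD1, which helps to dock ferredoxin on the stromal side of photosystem I, had 999 and 985 in the Col-0 libraries, 609.8 and 718 in those of lhp1-3 and 648 and 798 in those of importin123. Both lhp1-3 libraries lay below Col-0, and the change was -0.58 ± 0.15 (adjusted p = 0.0411, edgeR). PSAO, which takes part in the docking of mobile antenna at photosystem I, had 684 and 742 in the Col-0 libraries, 412 and 481 in those of lhp1-3 and 532 and 680.4 in those of importin123. The lhp1-3 libraries were the lowest of the 6, and the change was -0.68 ± 0.16 (adjusted p = 0.0327, edgeR). Neither call held without each library in turn: PSAD1 lost it without any 1 of the Col-0 or lhp1-3 libraries, and PSAO without Col-0 replicate 2, lhp1-3 replicate 1 or lhp1-3 replicate 2. PSBR had the next largest value, -0.64 ± 0.18, and did not pass (adjusted p = 0.0552, edgeR).

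Across all features the same comparison called all 36 members lower, where 33.5% of features were called lower and 41.8% higher. The median of the members was then -1.15 and the median of all features 0.17, which another scaling (RLE size factors) moved to -0.012. The SD of the values over the 36 members was 0.130 across all features and 0.131 across well-expressed genes. The lowest value was -1.41 and -0.68 in these tests, the median -1.15 and -0.42 and the highest -0.81 and -0.080. When the level of reads on silent genes was taken off each gene before the test, 2 members were called lower, where 6.30% of the 19825 features tested were called lower and 9.87% higher. Between these tests the number of members called in lhp1-3 thus ranged from 2 to 36.

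The values differed little among the members. Over all 7474 well-expressed genes the interquartile range of log2 fold changes in lhp1-3 was 0.395, and over the members 0.141, close to the median SE of 1 member, 0.15. Such a narrow spread was not particular to them: the SD was 0.131 over the members, 0.121 over 13 genes of chlorophyll synthesis and 0.141 over 10 regulators of photosynthesis genes. Of the 572 nuclear genes with a mean RPKM of at least 100, a level that 34 members reach, 17.0% were called lower and 4.55% higher in lhp1-3, with a median of -0.22. By role, the medians were -0.49 for photosystem I, -0.38 for photosystem II, -0.42 for the minor antenna, -0.32 for electron carriers and -0.19 for the ATP synthase.

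**Figure D2:**
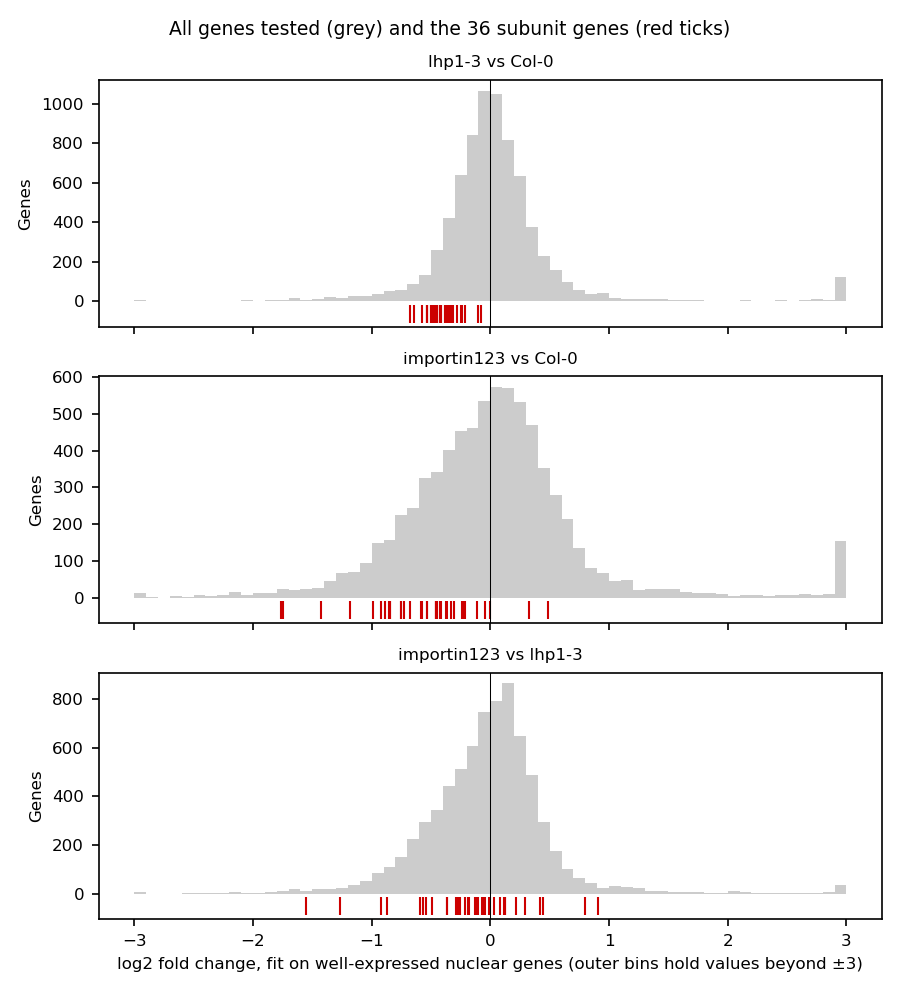
Log2 fold changes in the 3 comparisons for the 7474 well-expressed nuclear genes (grey bars, counts of genes) and for the 36 subunit genes (red ticks). The ticks fall in a narrow band at a median of -0.42 in lhp1-3 and spread from -1.76 to 0.48 in importin123.

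In importin123 the same genes moved unequally. Across well-expressed nuclear genes 23 of 36 were lower and 1 was higher than in Col-0, where 29.2% of all genes tested were called lower and 27.3% higher. Log2 fold changes ran from -1.76 for LHCB4.3 to 0.48 for LHCB4.2 (AT3G08940), with a median of -0.49 beside -0.0014 over all genes tested. Their SD over the 36 was 0.478 and their interquartile range 0.515, against 0.742 for all genes tested. Among the 572 genes with a mean RPKM of at least 100, 48.3% were called lower and 21.3% higher, with a median of -0.36. Both importin123 libraries lay below both Col-0 libraries for 29 members, as for 41.2% of all genes tested, and above them for LHCB4.2 and LHCB6 (AT1G15820), as for 41.1%.

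Across all features 35 members were lower in importin123, with a median of -1.29 beside 0.20 over all features, of which 33.2% were called lower and 42.3% higher. The exception was LHCB4.2, at -0.31 ± 0.19 (adjusted p = 0.159, edgeR), so its direction against Col-0 depends on the scale. With the reads on silent genes taken off, 24 members were lower, where 21.0% of features tested were called lower and 20.3% higher. The comparisons of the mutants with Col-0 share the Col-0 libraries, so their values are not independent of each other.

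**Figure D3:**
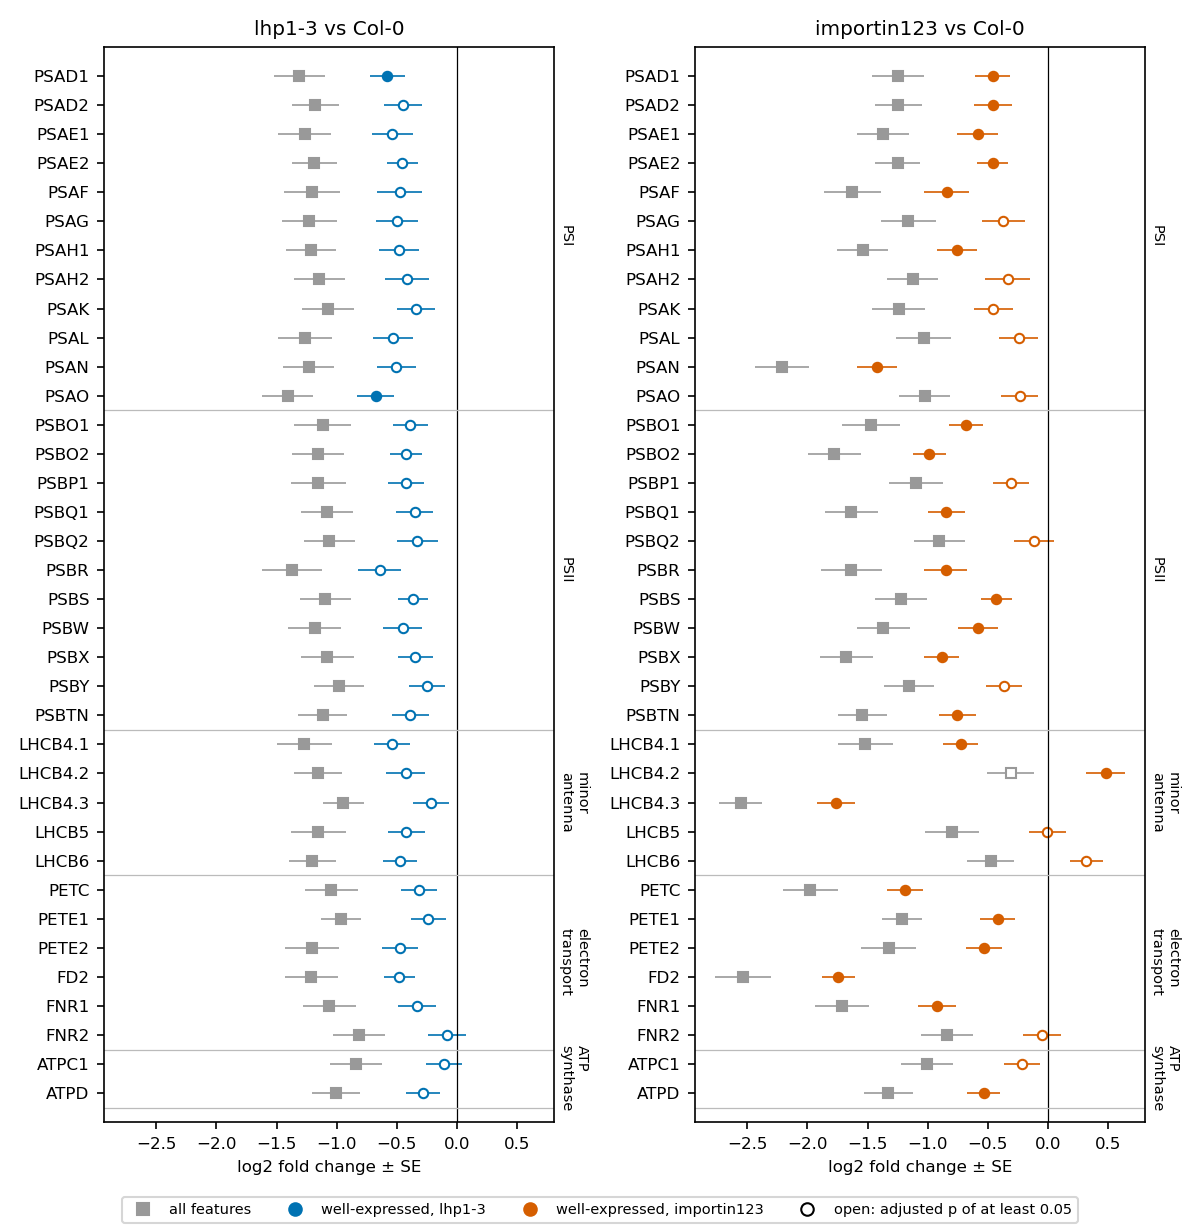
Log2 fold change ± SE of each subunit gene against Col-0 in lhp1-3 (left) and importin123 (right), across all features (grey squares) and across well-expressed nuclear genes (coloured circles); open symbols did not pass an adjusted p of 0.05. In lhp1-3 the members form a nearly straight column at either scale, and in importin123 they scatter widely.

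In the direct comparison of importin123 with lhp1-3 the fold changes set these libraries against each other, and Col-0 enters the scaling and the shared estimate of the spread. The median over the members was -0.12 across well-expressed genes and -0.17 across all features. Its direction rested on single libraries: without importin123 replicate 1 it was 0.041 and 0.12, and without lhp1-3 replicate 2 it was 0.0077 across well-expressed genes. Across well-expressed genes 2 members were higher in importin123 and 8 lower, where 15.0% of all genes tested were called higher and 21.2% lower. Across all features 2 were higher and 4 lower, where 2.84% were called higher and 6.05% lower. LHCB4.2 and LHCB6 were the higher ones and LHCB4.3, FD2 (AT1G60950), PSAN (AT5G64040) and PETC (AT4G03280) the lower ones in both tests. FNR1 (AT5G66190), PSBO2 (AT3G50820), PSBX (AT2G06520) and PSBQ1 (AT4G21280) were lower across well-expressed genes alone.

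**Figure D4:**
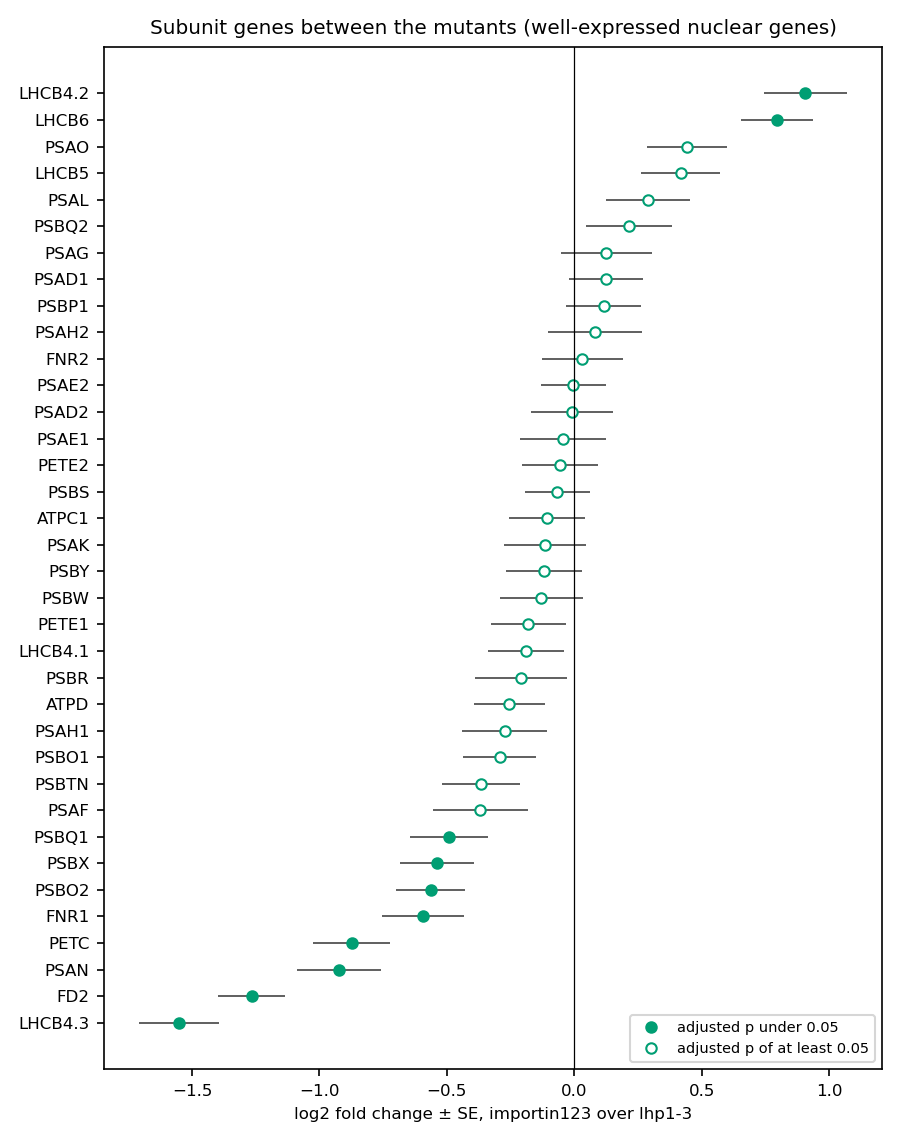
Log2 fold change ± SE of importin123 over lhp1-3 for the 36 subunit genes across well-expressed nuclear genes, in order of size; filled symbols passed an adjusted p of 0.05. Most members lie near 0, LHCB4.2 and LHCB6 stand apart at the top, and LHCB4.3, FD2, PSAN and PETC at the bottom.

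Among the photosystem I subunits, 7 of 12 were lower in importin123 than in Col-0 across well-expressed genes, and the values ranged from -1.42 to -0.23. Of all genes tested there 29.2% were called lower, and of the 572 with a mean RPKM of at least 100, 48.3%. PSAN, a small subunit on the lumenal side where plastocyanin docks, changed most and had 728 and 764 in the Col-0 libraries, 495 and 559 in those of lhp1-3 and 236 and 319.6 in those of importin123. Its importin123 libraries were the lowest of the 6, with no overlap with either other genotype. PSAN fell by 1.42 ± 0.17 on the log2 scale against Col-0 (adjusted p = 0.0011, edgeR) and by 0.92 ± 0.16 against lhp1-3 (adjusted p = 0.00863, edgeR). The second call was lost without lhp1-3 replicate 2 across well-expressed genes, and without lhp1-3 replicate 2 or importin123 replicate 1 across all features.

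PSAF (AT1G31330), whose lumenal part binds plastocyanin, had 841 and 933 in the Col-0 libraries, 605 and 674 in those of lhp1-3 and 406 and 583 in those of importin123, and fell by 0.84 ± 0.19 against Col-0 (adjusted p = 0.0102, edgeR). Its lowest library was importin123 replicate 1, and replicate 2 of that genotype lay just below lhp1-3. PSAH1 (AT3G16140), a subunit near which mobile antenna binds, had 327 and 355 in the Col-0 libraries, 226 and 264 in those of lhp1-3 and 173 and 233 in those of importin123, and fell by 0.75 ± 0.17 against Col-0 (adjusted p = 0.0101, edgeR). Its importin123 replicate 2 lay within the range of lhp1-3.

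The other called members of photosystem I were the copies of PSAD and PSAE, which form the stromal face: PSAD1 at -0.46 ± 0.15, PSAD2 (AT1G03130) at -0.46 ± 0.16, PSAE1 (AT4G28750) at -0.58 ± 0.17 and PSAE2 (AT2G20260) at -0.46 ± 0.13. All 4 calls were lost without importin123 replicate 1, and each was also lost without at least 1 Col-0 library. PSAG (AT1G55670) and PSAK (AT1G30380), which flank the core where the antenna of photosystem I attaches, had values of -0.37 ± 0.18 and -0.45 ± 0.16 and did not pass. PSAH2 (AT1G52230), PSAL (AT4G12800) and PSAO, neighbours of PSAH1 at the docking site, had -0.33 ± 0.19, -0.24 ± 0.17 and -0.23 ± 0.16 and did not pass either. PSAG, the highest member of this group by mean RPKM, had 1498 and 1714 in the Col-0 libraries, 1034 and 1242 in those of lhp1-3 and 1066 and 1418 in those of importin123. PSAD2, the lowest, had 222 and 239 in the Col-0 libraries, 154 and 184 in those of lhp1-3 and 144 and 192 in those of importin123. In both, the importin123 libraries lay below Col-0 and overlapped the range of lhp1-3.

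Among the photosystem II subunits, 8 of 11 were lower in importin123 than in Col-0, with values from -0.99 to -0.11. The shares called lower were 29.2% of all genes tested and 48.3% of those with a mean RPKM of at least 100. The water-splitting complex is covered on the lumenal side by the extrinsic proteins PSBO, PSBP and PSBQ. PSBO2, a copy of the manganese-stabilising protein, had 1000.01 and 986 in the Col-0 libraries, 695 and 789 in those of lhp1-3 and 457 and 546 in those of importin123. Its importin123 libraries lay below all others, and it fell by 0.99 ± 0.14 against Col-0 (adjusted p = 0.00191, edgeR) and by 0.56 ± 0.13 against lhp1-3 (adjusted p = 0.0215, edgeR). PSBO1 (AT5G66570), the more abundant copy, had 2068 and 2127 in the Col-0 libraries, 1487 and 1727 in those of lhp1-3 and 1188 and 1435 in those of importin123, and fell by 0.68 ± 0.14 against Col-0 (adjusted p = 0.00834, edgeR).

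PSBQ1 had 766 and 790.0 in the Col-0 libraries, 555 and 665 in those of lhp1-3 and 386 and 482 in those of importin123, and fell by 0.84 ± 0.15 against Col-0 (adjusted p = 0.00493, edgeR). PSBQ2 (AT4G05180), the other copy, had 323 and 389.6 in the Col-0 libraries, 272 and 296 in those of lhp1-3 and 285 and 374 in those of importin123, with a change of -0.11 ± 0.17 that did not pass (adjusted p = 0.594, edgeR). The importin123 libraries of PSBQ1 lay below all others, and those of PSBQ2 overlapped Col-0. PSBP1 (AT1G06680) had -0.31 ± 0.15 and did not pass.

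Of the membrane subunits, PSBX, a small hydrophobic subunit, had 1913 and 2013 in the Col-0 libraries, 1424 and 1666 in those of lhp1-3 and 956 and 1172 in those of importin123. It was lowest in both importin123 libraries, at -0.88 ± 0.15 against Col-0 (adjusted p = 0.00356, edgeR). PSBR fell by 0.85 ± 0.18 (adjusted p = 0.00862, edgeR), and PSBTN (AT3G21055), a small lumenal subunit, by 0.75 ± 0.15 (adjusted p = 0.00752, edgeR). PSBW (AT2G30570) fell by 0.58 ± 0.16 and PSBS (AT1G44575), the protein needed for rapid energy dissipation in high light, by 0.43 ± 0.13, and both calls were lost without Col-0 replicate 2 or importin123 replicate 1. PSBY (AT1G67740) had -0.37 ± 0.15 and did not pass. Against lhp1-3, the calls of PSBO2 and PSBX were lost without importin123 replicate 1 or either lhp1-3 library, and that of PSBQ1 without any 1 library other than importin123 replicate 2.

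The minor antenna proteins LHCB4, LHCB5 (AT4G10340) and LHCB6 link the photosystem II core to the trimeric antenna, and their genes moved in different directions in importin123. LHCB4.1 (AT5G01530), the main LHCB4 copy, had 1204 and 1289 in the Col-0 libraries, 793 and 925 in those of lhp1-3 and 675 and 833 in those of importin123, and fell by 0.73 ± 0.15 against Col-0 (adjusted p = 0.00766, edgeR). LHCB4.2 had 163 and 196 in the Col-0 libraries, 124 and 144 in those of lhp1-3 and 221 and 281 in those of importin123. Both importin123 libraries of LHCB4.2 were above the other 4, and both lhp1-3 libraries were below both Col-0 libraries. LHCB4.2 rose by 0.48 ± 0.16 against Col-0 (adjusted p = 0.0414, edgeR), a call lost without Col-0 replicate 1, either lhp1-3 library or importin123 replicate 2. Against lhp1-3 it rose by 0.91 ± 0.16 (adjusted p = 0.0086, edgeR), a call lost without lhp1-3 replicate 1 and, across all features, also without importin123 replicate 2.

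LHCB4.3, whose libraries are given above, fell by 1.76 ± 0.16 against Col-0 (adjusted p = 0.000433, edgeR) and by 1.55 ± 0.16 against lhp1-3 (adjusted p = 0.0014, edgeR), that is to 0.295 and 0.341 of their levels. Its importin123 libraries lay far below the other 4, and its lhp1-3 libraries overlapped Col-0. Both calls held in all of the alternatives in which it was tested. Of the summed RPKM of the 3 LHCB4 genes, LHCB4.1 held 82.3% and 82.8% in the Col-0 libraries, 80.3% and 81.0% in those of lhp1-3 and 73.5% and 73.0% in those of importin123. LHCB4.2 held 11.1% and 12.6%, 12.5% and 12.6%, and 24.0% and 24.6%. LHCB4.3 held 6.51% and 4.62%, 7.25% and 6.36%, and 2.44% and 2.35%. The makeup of this family in importin123 thus lay outside the range of the other 4 libraries for each copy.

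LHCB6 had 339.8 and 393 in the Col-0 libraries, 239 and 289.5 in those of lhp1-3 and 437 and 479 in those of importin123. Its importin123 libraries were above the other 4, at 0.32 ± 0.14 against Col-0, which did not pass (adjusted p = 0.0918, edgeR), and at 0.79 ± 0.14 against lhp1-3, which did (adjusted p = 0.0085, edgeR). Across all features its value against Col-0 had the other sign, -0.47 ± 0.20, so its direction against Col-0 depends on the scale. The call against lhp1-3 was lost without lhp1-3 replicate 1 and, across all features, without either lhp1-3 library or importin123 replicate 2. LHCB5 had 809 and 895 in the Col-0 libraries, 586 and 689 in those of lhp1-3 and 758 and 942 in those of importin123. Its importin123 libraries overlapped Col-0, with a change of -0.0030 ± 0.15, and lay above lhp1-3, with 0.42 ± 0.15 (adjusted p = 0.0775, edgeR).

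Among the electron carriers, 5 of 6 were lower in importin123 than in Col-0. So were 29.2% of all genes tested and 48.3% of those with a mean RPKM of at least 100. FD2, the main leaf ferredoxin, was the third most abundant member and had 2187 and 2366 in the Col-0 libraries, 1558 and 1715 in those of lhp1-3 and 624 and 736 in those of importin123. The importin123 libraries held less than any other library, and lhp1-3 lay between them and Col-0. FD2 fell by 1.74 ± 0.13 against Col-0 (adjusted p = 0.000253, edgeR) and by 1.27 ± 0.13 against lhp1-3 (adjusted p = 0.00162, edgeR), that is to 0.299 and 0.416 of their levels. Both calls held under every alternative tried.

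PETC, the Rieske iron-sulfur protein of the cytochrome b6f complex, had 1009 and 988 in the Col-0 libraries, 759 and 851 in those of lhp1-3 and 385 and 493 in those of importin123. The 3 genotypes did not overlap, and importin123 was lowest, at -1.19 ± 0.15 against Col-0 (adjusted p = 0.0015, edgeR) and -0.87 ± 0.15 against lhp1-3 (adjusted p = 0.00778, edgeR). The call against lhp1-3 was lost without lhp1-3 replicate 2 and, across all features, also without lhp1-3 replicate 1 or importin123 replicate 1.

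FNR1 and FNR2 encode the leaf forms of ferredoxin-NADP reductase. FNR1 had 562 and 539 in the Col-0 libraries, 411 and 466 in those of lhp1-3 and 249.9 and 331 in those of importin123, and FNR2 had 385 and 349.7 in the Col-0 libraries, 344 and 352 in those of lhp1-3 and 304 and 407 in those of importin123. The importin123 libraries of FNR1 were below all others, and those of FNR2 reached from below to above Col-0. FNR1 fell by 0.92 ± 0.16 against Col-0 (adjusted p = 0.00428, edgeR) and by 0.59 ± 0.16 against lhp1-3 (adjusted p = 0.0315, edgeR), the second call being lost without importin123 replicate 1 or either lhp1-3 library. FNR2 had a change of -0.049 ± 0.16 against Col-0 (adjusted p = 0.807, edgeR).

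Plastocyanin is encoded by PETE1 and PETE2 (AT1G20340). PETE2, the main copy, had 1443 and 1597 in the Col-0 libraries, 980.0 and 1208 in those of lhp1-3 and 976 and 1129 in those of importin123, and PETE1 had 76.2 and 98.3 in the Col-0 libraries, 67.4 and 80.9 in those of lhp1-3 and 62.9 and 67.9 in those of importin123. Their importin123 libraries lay below Col-0, at -0.53 ± 0.15 and -0.42 ± 0.15. Both calls were lost without Col-0 replicate 2 or importin123 replicate 1, and that of PETE1 also without either lhp1-3 library or importin123 replicate 2. For the ATP synthase, the gamma subunit gene ATPC1 (AT4G04640) had 759 and 762 in the Col-0 libraries, 667 and 748 in those of lhp1-3 and 577 and 737 in those of importin123, and the delta subunit gene ATPD (AT4G09650) had 532 and 529 in the Col-0 libraries, 399.6 and 475 in those of lhp1-3 and 332 and 401 in those of importin123. ATPD fell by 0.53 ± 0.14 (adjusted p = 0.0183, edgeR), a call lost without either Col-0 library or importin123 replicate 1, and ATPC1 had -0.21 ± 0.15 and did not pass.

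Replicate 1 of importin123 was below replicate 2 for every member, with a ratio of replicate 2 to replicate 1 of 1.08 to 1.44 and a median of 1.26. In lhp1-3 the median ratio was 1.17, also above 1 for all 36, and in Col-0 1.07, above 1 for 28. Without importin123 replicate 1, or without Col-0 replicate 2, fewer members were called lower in importin123 than in Col-0. Fewer of all genes tested were called lower in these fits as well. The calls of 14 of the 24 members against Col-0 held under every alternative, and these were PSAF, PSAH1, PSAN, PSBO1, PSBO2, PSBQ1, PSBR, PSBX, PSBTN, LHCB4.1, LHCB4.3, PETC, FD2 and FNR1.

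For 8 pairs of copies of 1 protein, the balance between the copies does not depend on how libraries are scaled. In importin123 it lay outside the range of the other 4 libraries for 5 pairs. No such count was made for other pairs of genes, so how common this is in these data is not known. PSBQ1 held 70.4% and 67.0% in the Col-0 libraries, 67.2% and 69.2% in those of lhp1-3 and 57.5% and 56.3% in those of importin123 of the summed RPKM of PSBQ1 and PSBQ2. FNR1 held 59.3% and 60.7% in the Col-0 libraries, 54.5% and 57.0% in those of lhp1-3 and 45.2% and 44.9% in those of importin123 of the FNR pair. LHCB4.1 held 88.1% and 86.8% in the Col-0 libraries, 86.5% and 86.5% in those of lhp1-3 and 75.4% and 74.8% in those of importin123 of the sum of LHCB4.1 and LHCB4.2. In these 3 pairs the more abundant copy of Col-0 lost ground, and for FNR the order of the copies turned over.

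PSAH1 held 52.0% and 48.9% in the Col-0 libraries, 49.9% and 48.6% in those of lhp1-3 and 43.0% and 43.2% in those of importin123 of its pair, and PSBO1 held 67.4% and 68.3% in the Col-0 libraries, 68.2% and 68.6% in those of lhp1-3 and 72.2% and 72.4% in those of importin123, a rise of the more abundant copy. PSAE1 held 63.1% and 64.2% in the Col-0 libraries, 61.6% and 63.0% in those of lhp1-3 and 60.6% and 62.4% in those of importin123, PSAD1 81.8% and 80.5% in the Col-0 libraries, 79.9% and 79.6% in those of lhp1-3 and 81.8% and 80.6% in those of importin123, and PETE2 95.0% and 94.2% in the Col-0 libraries, 93.6% and 93.7% in those of lhp1-3 and 93.9% and 94.3% in those of importin123. In these last 3 pairs the importin123 libraries overlapped at least 1 other genotype. Between lhp1-3 and Col-0 the largest difference was that of FNR1, from 60.0% ± 0.947 to 55.7% ± 1.76 (SD, n = 2). With 2 libraries against 2 an exact permutation test cannot give a two-sided p below 0.333, so no test is given for these shares. The coding sequences of the paired copies are at most 88.0% identical over aligned bases, and the longest run shared by a pair is 17 to 35 bases. How reads that match both copies were placed is not given in the sources used here.

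**Figure D5:**
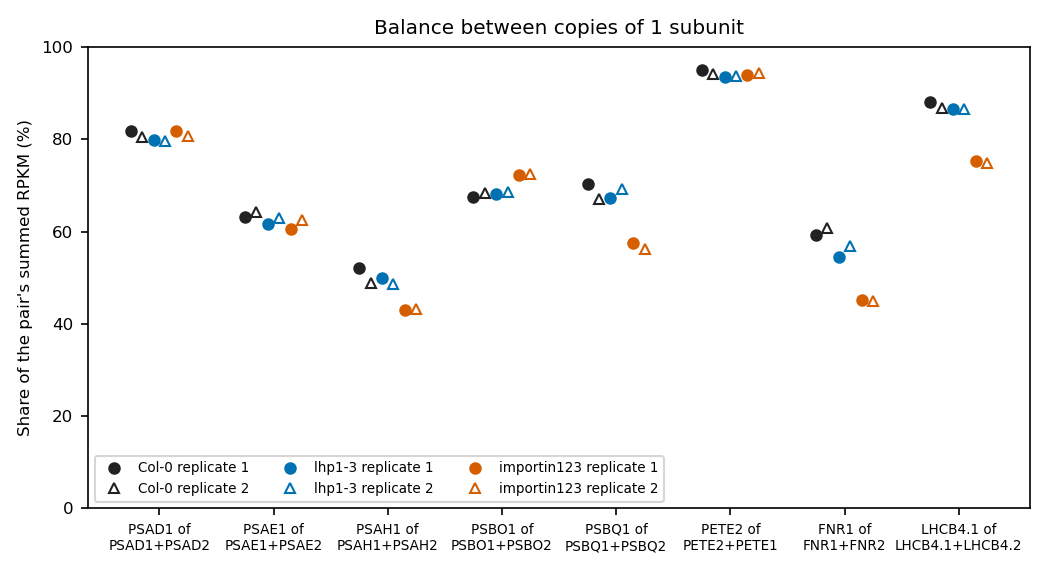
Share (%) of the summed RPKM of a pair of copies that is held by the first-named copy, in each of the 6 libraries. The shares of PSBQ1, FNR1, LHCB4.1 and PSAH1 are lower in importin123 than in the other 4 libraries, and that of PSBO1 is higher.

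Other genes of the photosynthetic membrane were compared as lists, by counts across well-expressed nuclear genes and by their medians. Of all genes tested there, 29.2% were called lower and 27.3% higher in importin123 than in Col-0. Against lhp1-3, 21.2% were called lower and 15.0% higher in importin123. In lhp1-3, 8.34% were called lower and 10.2% higher than in Col-0. Of the genes for the large antenna (LHCA, LHCB1 to LHCB3 and LHCB7), 9 of 15 tested (16 listed) were higher and 4 lower in importin123 than in Col-0 (median 0.70), and 11 were higher and 3 lower than in lhp1-3 (median 1.71). LHCB1.2, LHCB1.1 and LHCB2.2 had the smallest adjusted p against Col-0, with rises of 3.06 ± 0.19, 3.24 ± 0.24 and 2.11 ± 0.20. In lhp1-3, 1 was higher and 5 were lower than in Col-0 (median -0.56). The genes of the large antenna are near-identical copies in part, so reads could be placed on the wrong copy.

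Of 21 other thylakoid genes tested (23 listed), among them PETM of the cytochrome b6f complex, FD1, the minor leaf ferredoxin, and STN8, a kinase of photosystem II proteins, 19 were lower in importin123 than in Col-0 (median -1.01) and 14 lower than in lhp1-3 (median -0.66). These 3 had the smallest adjusted p against Col-0, with -2.05 ± 0.16, -1.31 ± 0.11 and -1.12 ± 0.10. In lhp1-3, 4 were lower than in Col-0 (median -0.30), among them PETM at -0.69 ± 0.16.

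Of 13 tested genes of chlorophyll synthesis (14 listed), 7 were lower in importin123 than in Col-0 (median -0.38) and 5 lower than in lhp1-3. HEMA1, which makes the first committed step of tetrapyrrole synthesis, GUN4 and CHLH, of the step that inserts magnesium, had the smallest adjusted p, at -2.30 ± 0.12, -1.14 ± 0.11 and -1.30 ± 0.12. In lhp1-3 edgeR called 0 of 13 (median -0.14, 1 at an unadjusted p under 0.05), DESeq2 1 and limma on log2(RPKM + 1) 7, all lower. Of 10 tested regulators of photosynthesis genes (12 listed), 7 were lower in importin123 than in Col-0 (median -0.54), led by GNC, a GATA factor, at -0.99 ± 0.10, SIG1, a plastid sigma factor, at -1.07 ± 0.11, and GLK2, an activator of photosynthesis genes, at -0.68 ± 0.087. In lhp1-3 edgeR called 0 of 10 (median 0.047, 0 at an unadjusted p under 0.05), DESeq2 0 and limma 4, all lower. Of all well-expressed genes limma called 39.5% lower and 4.6% higher in lhp1-3, with a median of -0.27. Its calls in both lists are to be read beside these shares.

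The plastid-encoded partners of these complexes were measured across all features alone. There 41.8% of all features were called higher and 33.5% lower in lhp1-3 than in Col-0, and 42.3% and 33.2% in importin123. Of 32 plastid features whose lengths match photosystem, cytochrome b6f and ATP synthase genes of the plastid genome, 29 were higher and 1 lower in each mutant than in Col-0, with a median of 2.21 in both comparisons. Their summed RPKM was 10599 and 12166 in the Col-0 libraries, 35397 and 34138 in those of lhp1-3 and 40937 and 31934 in those of importin123. The members summed to 23706 and 24830, 13510 and 15834, and 11021 and 15122. Plastid transcripts mostly lack long poly(A) tails and the libraries were poly(A)-selected, and the part of that selection in these values was not tested. Between the mutants edgeR, DESeq2 and limma each called 0 of 32 (0 at an unadjusted p under 0.05), with values from -0.26 to 0.089. Of all features edgeR called 2.84% higher and 6.05% lower in importin123 than in lhp1-3.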

How the data were processed

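RNA of whole seedlings of 3 genotypes, with 2 libraries each, was sequenced after poly(A) selection from 500 ng of total RNA, per the labels' protocols. The authors deposited 1 table with a raw count and an RPKM value for each feature and library, and every value column was matched to a sample by its name. FastQC, HISAT2, SAMtools, bedtools, edgeR and the build TAIR10 are named in the submitters' processing notes. For these no version or setting is given in the sources used here. Counts over the whole gene span, as deposited, were tested with edgeR 4.0.16 in R 4.3.3 (robust quasi-likelihood test, TMM scaling, all 6 libraries, two-sided, Benjamini-Hochberg over all genes tested), once across all features that passed filterByExpr and once across nuclear genes with a mean deposited RPKM of at least 10. Every adjusted p without another tool's name comes from this test with SE derived from its F value as |log2 fold change| / sqrt(F). The procedure was tested on simulated data.

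The members, the lists and the tests were chosen with earlier results of these data known. By rule, values in every library are given for members called in the same direction in both tests, limited to those of largest change per role, for the highest and lowest member of each role and for pairs of copies. Of each list, up to 3 genes with the smallest adjusted p are named. Alternatives were RLE size factors, DESeq2 1.42.0, limma 3.58.1 on log2(RPKM + 1), a fit on the 4 libraries of each comparison, a block for the replicate number, each library omitted in turn, other filters, and the reads expected from silent genes taken off. The silent genes were the lowest 10% of nuclear genes of at least 1000 bp. Gene lengths in the table equalled those of TAIR10.1 within 2 bases for 32508 of 32524 genes that have both, and TAIR10.1 gave names, spans and sequences (Biopython 1.88 for alignments). Replicates of a genotype differed beyond sampling noise (chi-square per degree of freedom 22.0 to 52.8), so no library was treated as a second deposit of another, and whether they are separate biological samples is not given in the labels. The SE rest on 2 libraries per genotype.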

Additional observations from a re-analysis of the deposited data

How the results depend on the processing

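Counts of members are given as higher and lower. In lhp1-3 against Col-0 across well-expressed genes, 2 lower became 6 with RLE size factors, 24 with DESeq2, 13 with the 4 libraries compared, 32 with limma and 1 with a mean RPKM of at least 30. Of all genes tested, 8.34% were called lower in the main test. In the same order, the other settings called 9.15%, 14.7%, 9.03%, 39.5% and 7.24% of all genes lower. The limma test used the deposited RPKM without further scaling, and its median over all genes was -0.27. Across all features 36 lower became 2 with the reads of silent genes taken off, where the share of all features called lower went from 33.5% to 6.30%. In importin123 against Col-0 across well-expressed genes, 1 higher became 2 with DESeq2 or a mean RPKM of at least 30, 3 with at least 100, and 0 with the 4 libraries compared or limma, and 23 lower became 13 with a mean RPKM of at least 100. Of all genes, the share called higher went from 27.3% to 29.4%, 33.2%, 34.3%, 25.4% and 12% in that order. That called lower went from 29.2% to 35% with a mean RPKM of at least 100, where LHCB4.3 and PETE1 were not tested. In importin123 against lhp1-3, 2 higher became 4 with DESeq2 or at least 30, and 5 with at least 100, and 8 lower became 5 with limma. The share of all genes called higher went from 15.0% to 20.3%, 24.5% and 28.5% in that order. The share called lower went from 21.2% to 16.6% with limma. Across all features 4 lower became 8 with DESeq2 and 7 with silent reads taken off, where the share of all features called lower went from 6.05% to 9.05% and 13.6%. Leaving out 1 library at a time gave, across well-expressed genes, 0 to 13 lower in lhp1-3, 0 to 1 higher and 14 to 27 lower in importin123, and 0 to 3 higher and 2 to 11 lower between the mutants. Across all features it gave 34 to 36 lower, 33 to 36 lower, and 0 to 2 higher and 2 to 9 lower. Where 1 library was left in a genotype, it was assumed to vary like the others. The share of all genes called also changed from fit to fit when a library was left out. The counts of members from these fits thus do not by themselves show a change particular to the members.

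Replicate numbers are not shown to pair the libraries: the deviations of same-numbered libraries correlated at -0.112, 0.0722 and -0.0089. The replicate block gave 15 lower in lhp1-3, 2 higher and 27 lower in importin123, and 4 higher and 8 lower between the mutants, across well-expressed genes. Of all genes tested it called 6.86% lower in lhp1-3, and 25.3% higher and 28.3% lower in importin123. Between the mutants it called 11.7% higher and 19.4% lower. A crossed replicate block for lhp1-3 and Col-0, chosen after seeing the data, gave 0 lower (36 across all features). It called 6.76% of all well-expressed genes lower, and 33.3% of all features.

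Values that changed sign were LHCB6 in importin123 against Col-0 across all features, with 0.053 by limma and 0.31 with silent reads taken off, and LHCB5 in the same comparison across well-expressed genes, with 0.31 at a mean RPKM of at least 100. The median between the mutants became 0.12 across all features without importin123 replicate 1, and 0.041 without importin123 replicate 1 and 0.0077 without lhp1-3 replicate 2 across well-expressed genes. Without importin123 replicate 2 it was -0.46 and -0.29. The cause was not tested. A sign difference without a call in either setting occurred in 99 other values of single genes. For all features, the median in importin123 against Col-0 ran from -1.52 to -0.52. The mean shares of copies were also taken from counts, and with silent reads taken off. They moved by at least the SD of the genotype's libraries in 26 cases and by less in 22.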
